A study of Mus musculus with 36 samples.

Results

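The newborn male set of this mouse brain RNA-Seq series holds 6 of its 36 libraries. They are the libraries HT1, HT2 and HT3 from Chd8+/S62X males and WT1, WT2 and WT3 from wild-type males, chosen by the age, sex and genotype on their labels. The series covers 12 groups of 3 libraries, with both genotypes and both sexes at P0, P25 and P80, and the study states 3 mice per group. All animals were C57BL/6 and the tissue of every library is labelled as whole brain. The HT mice carry the S62X stop codon in 1 copy of Chd8 in the germline, so that every cell type holds it, and a single allele stands for loss-of-function mutations of the gene. The WT males of the same age differ from them, by the labels, in genotype only. P-values below measure the spread between these 6 libraries, and in bulk tissue fewer cells of a type and less RNA per cell cannot be told apart.

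CHD8 is an ATP-dependent chromatin remodeler that binds many promoters and is known as a regulator of Wnt and beta-catenin signaling and as a high-confidence risk gene for autism spectrum disorders (ASD). In the developing brain each region expresses its own transcription factors: Emx1 belongs to the telencephalon, Tcf7l2 and Lhx9 to the thalamus and neighbouring diencephalon and midbrain, En1 and En2 to the midbrain and cerebellum, and the Hox genes to the hindbrain and spinal cord. The level of such a gene in a library of brain tissue therefore also depends on which regions, and how much of each, were in the tissue. The allele S62X replaces the serine of codon 62 of 2582 by a stop. The reference sequence around that codon is shown because it places the mutation at the start of the protein. It was read from GENCODE vM21 transcripts (GRCm38, chr14:52237357-52237419, minus strand; exon 1 of transcript Chd8-201 and exon 2 of Chd8-212), with codon 62, at bases 52237387 to 52237389, in capitals. The base change that the allele carries was not used here.
Chd8 codon 62: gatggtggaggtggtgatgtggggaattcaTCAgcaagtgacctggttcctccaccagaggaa

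The 6 libraries did not hold the same brain regions in the same proportion, and the division ran between WT1 and the other WT libraries. Values are DESeq2-normalized values as deposited, that is, estimated fragment counts scaled by normalization factors, and they are not divided by transcript length. Emx1, a homeobox gene of the cerebral cortex, had values of 28.3, 20.1 and 0 in HT1 to HT3 and of 4.73, 675 and 651 in WT1 to WT3. WT2 and WT3 were high and WT1 fell within the range of the HT libraries. At P25 (317 to 433 over 12 libraries) and at P80 (246 to 382 over 12 libraries) its values lay between these extremes. En2, the engrailed gene of the midbrain and cerebellum, had values of 2201, 1478 and 1106 in HT1 to HT3 and of 75.1, 5.99 and 3.23 in WT1 to WT3. HT1 to HT3 were all far above WT1 to WT3, and at P25 and P80 every library had at least 828. WT1 thus stood far below the older brains for Emx1 and En2 alike.

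Markers of the diencephalon and of the hindbrain divided the libraries in other ways. Tcf7l2, a Wnt effector and thalamic transcription factor, had values of 9227, 9199 and 2527 in HT1 to HT3 and of 418, 556 and 284 in WT1 to WT3. The 3 HT libraries were above the 3 WT libraries, with HT3 below the other two. Hoxb5, a hindbrain and spinal cord gene, had values of 0.907, 13.3 and 1933 in HT1 to HT3 and of 4949, 1.01 and 1.04 in WT1 to WT3. It was high only in WT1 and HT3 of the 6. Over whole lists of markers, the median of 28 hindbrain and spinal cord genes was 9.36 in WT1, 8.55 in HT3 and 5.47 or less in the other 4 libraries on the log2(value + 1) scale, and the median of 30 telencephalon genes was 10.88 in WT2, 11.07 in WT3 and 8.74 or less in the other 4. The summed value of the telencephalon list was 32895, 32741 and 27581 in HT1 to HT3, 27019 in WT1, and 180691 and 186746 in WT2 and WT3. None of these 30 genes was at 0 in all 6 libraries, and the one with the highest value was Zbtb18. The label of whole brain was therefore not met evenly: WT2 and WT3 were rich in telencephalic RNA and had the lowest medians of the midbrain, cerebellum and hindbrain lists. Their summed values were also the lowest for midbrain (5716 and 5292) and cerebellum (16657 and 13524). For hindbrain and spinal cord their sums (2621 and 2878) were not below that of HT1 (2415). HT1 to HT3 and WT1 were low in telencephalic RNA, with hindbrain RNA mainly in WT1 and HT3. Genotype and the brain regions in the tissue cannot be told apart in a comparison of all 6 libraries. Whether labels were exchanged between libraries was not tested, so HT and WT stand for the libraries labelled so. Entpd4 (below) was chosen with earlier results of these data known, so its values do not test the labels. It was lower in every library labelled HT (1627 to 2754) than in every library labelled WT (2789 to 3189), beside 5.86% of all genes. It was also lower in HT without overlap in the newborn females and in both sexes at the older ages. Because the regions were uneven, HT is compared below with WT1 and with WT2 and WT3 side by side.

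**Figure D1:**
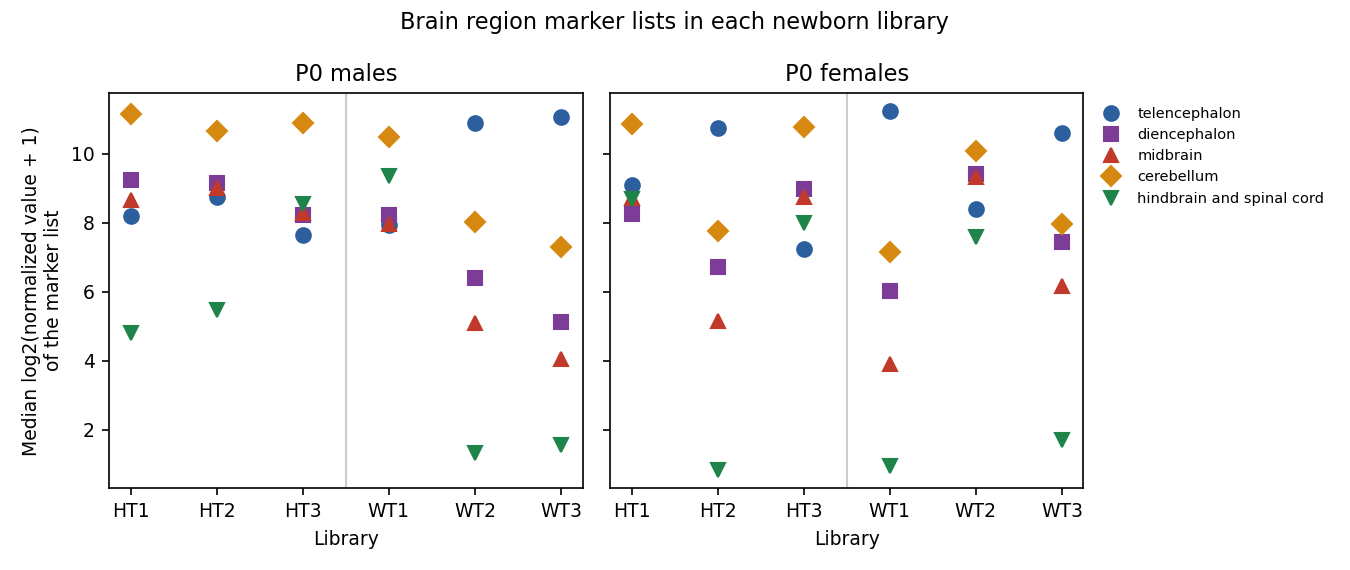
Median log2(normalized value + 1) of 5 lists of brain region markers in each newborn library, males on the left and females on the right, with HT and WT libraries separated by a grey line. In males the telencephalon circles of WT2 and WT3 stand at 10.88 and 11.07, above the other 4 libraries, and the hindbrain and spinal cord triangle is highest in WT1.

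Chd8 itself, on chromosome 14 (GRCm38, 52198151 to 52257780, minus strand), had values of 8058, 8704 and 8523 in HT1 to HT3 and of 4733, 9547 and 7839 in WT1 to WT3. The HT libraries fell inside the range of the WT libraries, of which WT1 was the lowest. The value counts RNA of both alleles together. The log2 difference of HT minus WT was 0.25 (standard error 0.253, limma adjusted p = 0.745, exact two-sided permutation p = 0.7), and it was 0.83 against WT1 and -0.04 against the mean of WT2 and WT3. At the older ages the genotypes did not overlap for Chd8, with HT higher in both sexes. In males it was 6204 to 6691 in HT and 3623 to 4166 in WT libraries at P25. At P80 it was 4626 to 5149 in male HT and 3375 to 3743 in male WT libraries. Xist, the RNA of the inactive X chromosome, was between 25.7 and 159 in the 6 libraries and between 82908 and 120928 in the 6 newborn female libraries. Eif2s3y, a translation factor gene of the Y chromosome, was 1573, 1312 and 1505 in HT1 to HT3, 1839, 234 and 2190 in WT1 to WT3 and at most 2.56 in the females. WT2, which had the lowest male value of Eif2s3y, also had the highest male value of Xist. The Y-linked genes Kdm5d (1076), Ddx3y (1102) and Uty (247) were lowest in WT2 as well, by smaller factors. In the other male libraries they were 1512 to 1819, 1673 to 1987 and 425 to 750. The cause was not tested.

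The comparison of all 3 HT with all 3 WT libraries asked which genes the S62X allele alters in the newborn male brain, and no gene passed it. Of 18375 genes whose mean in the 6 libraries reached 10, 0 (0.0%) had a limma adjusted p under 0.05, and 1318 (7.17%) had an unadjusted p under 0.05, 704 (3.83%) higher and 614 (3.34%) lower in HT. Cnpy1 and Fibcd1 were among the genes with the smallest p. Fibcd1, an acetyl-group-binding membrane receptor, had values of 1232, 1369 and 1000 in HT1 to HT3 and of 386, 383 and 292 in WT1 to WT3. It was 3.08-fold above WT1 and 3.55-fold above WT2 and WT3 on the log2(value + 1) scale, as for all folds below (limma adjusted p = 0.188).

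The number of calls depended on WT1. Without WT1, 3583 genes (19.5%) passed, 1759 (9.57%) higher and 1824 (9.93%) lower in HT, whereas leaving out any other single library gave 0. Against WT1 alone, where the single library is assumed to vary like the HT group, 1 gene (0.00544%) passed, Cplane1, which was lower in HT, and 1398 (7.61%) had an unadjusted p under 0.05. Of the 1759 genes that rose without WT1, 207 (11.8%) were also at least 1.5-fold higher in HT than in WT1, and 274 (15.6%) were at least 1.5-fold lower. Of the 1824 that fell, 102 (5.59%) were also at least 1.5-fold lower against WT1 and 142 (7.79%) were at least 1.5-fold higher. WT1 was also closer to the HT libraries than to its own group, with rank correlations across genes of 0.981, 0.983 and 0.979 to HT1 to HT3 and of 0.95 and 0.945 to WT2 and WT3. With a covariate for brain region, built from the telencephalon list against the midbrain, cerebellum and hindbrain lists, 7 genes (0.0381%) passed. Cnpy1, Islr2, Six3, Six3os1, Tfap2d and Trpc2 rose (6 genes, 0.0327%) and Cplane1 fell in that fit, which has 1 residual degree of freedom fewer and rests on lists that were chosen with these libraries in view.

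**Figure D2:**
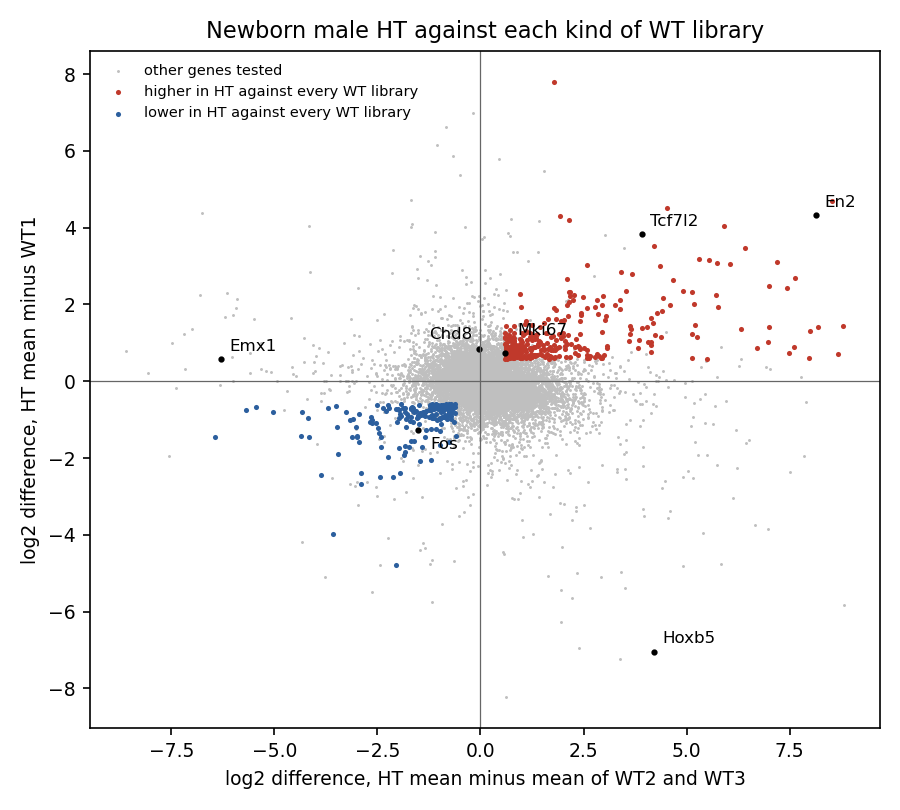
Log2 difference of the HT mean from WT1 (vertical axis) against its difference from the mean of WT2 and WT3 (horizontal axis) for the 18375 genes tested, with 7 genes named. Red and blue points are the 311 and 179 genes that were higher or lower in every HT library than in every WT library and by at least 1.5-fold against both kinds of WT library, while Emx1 lies far to the left and just above 0 on the vertical axis.

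Shifts of HT that were present against every WT library were a small part of all shifts. Relative to the mean of WT2 and WT3, 3301 genes (18.0%) were at least 1.5-fold higher in HT. Of these, 387 (11.7%) were so against WT1 as well and 683 (20.7%) were at least 1.5-fold lower than in WT1. Of the 2216 genes (12.1%) that were at least 1.5-fold lower in HT than in WT2 and WT3, 298 (13.4%) were also lower against WT1 and 288 (13.0%) were higher. Against WT1 itself 3004 genes (16.3%) differed by at least 1.5-fold, 1348 (7.34%) higher and 1656 (9.01%) lower in HT. A stricter count required in addition that no HT library overlapped with a WT library. The genotypes did not overlap for 2216 genes (12.1%), 1140 (6.2%) higher and 1076 (5.86%) lower in HT. Of these, 490 (2.67% of the genes tested) also met the 1.5-fold minimum against both, 311 (1.69%) higher and 179 (0.974%) lower. This split was 263 higher and 229 lower after quantile normalization. The 311 included 235 protein-coding genes and 25 members of the lists of brain region markers, and the 179 included 120 and 7.

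Several of the genes with the greatest excess in HT over WT1 were transcription factors of the midbrain and its borders. Pax7, a paired box gene of the dorsal midbrain, had values of 865, 999 and 57.9 in HT1 to HT3 and of 13.3, 0 and 0 in WT1 to WT3. It was listed at 0 in WT2 and WT3 and was 26.0-fold higher in HT than in WT1, with HT3 close to the WT range. Pax5, which patterns the midbrain-hindbrain border, had values of 1369, 1747 and 368 in HT1 to HT3 and of 177, 14.7 and 0.954 in WT1 to WT3. En1, the partner of En2, had values of 1074, 957 and 469 in HT1 to HT3 and of 90.5, 2.95 and 6.19 in WT1 to WT3. HT was 5.39-fold above WT1 for Pax5 and 8.58-fold above it for En1. Sox14, a transcription factor of midbrain and diencephalic GABAergic neurons, had values of 511, 508 and 147 in HT1 to HT3 and of 59.1, 1.67 and 1.66 in WT1 to WT3. For Pax5, En1 and Sox14 alike WT1 was the highest WT library and HT3 the lowest HT library. Tfap2d, the AP-2 delta factor of the dorsal midbrain, had values of 1098, 748 and 298 in HT1 to HT3 and of 1.80, 158 and 208 in WT1 to WT3. Here WT1 was the lowest of the 6 libraries, and HT3 was near WT3.

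En2 and Cnpy1, genes of the midbrain-hindbrain border, differed by large factors with little spread in HT. The log2 difference of En2 (chromosome 5, 28165694 to 28172166) was 6.87 (standard error 0.993, limma adjusted p = 0.240, exact two-sided permutation p = 0.1, the smallest that 3 against 3 allow). HT was 20.1-fold above WT1 and 282-fold above WT2 and WT3. Cnpy1, which encodes a modulator of FGF signaling, had values of 3099, 2083 and 1829 in HT1 to HT3 and of 138, 47.0 and 28.6 in WT1 to WT3. No HT library came near a WT library (log2 difference 5.29, standard error 0.539, limma adjusted p = 0.162), and HT was 16.4-fold above WT1 and 60.4-fold above WT2 and WT3. For comparison, Emx1 had a log2 difference of -4.0 (standard error 2.06, limma adjusted p = 0.678, exact permutation p = 0.3) that was 0.57 against WT1, where the values of HT and WT1 are low and HT3 is listed at 0.

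Tcf7l2, Sp5, Lhx9, Pcp2 and Slc6a2 were also higher in HT against both kinds of WT library. For Tcf7l2 the excess was 14.3-fold over WT1 and 15.0-fold over WT2 and WT3 (limma adjusted p = 0.236). Sp5, a zinc finger transcription factor and target of Wnt signaling, had values of 589, 467 and 339 in HT1 to HT3 and of 54.9, 119 and 46.2 in WT1 to WT3. It was 8.13-fold and 6.02-fold above WT1 and above WT2 and WT3 (limma adjusted p = 0.240). For Tcf7l2 and Sp5 the excess over WT1 was about as large as that over WT2 and WT3, unlike that of En2 or Pax5. Lhx9, a LIM homeobox gene of the thalamus and midbrain, had values of 4530, 3754 and 1496 in HT1 to HT3 and of 364, 255 and 80.3 in WT1 to WT3. Pcp2, a Purkinje cell protein, had values of 612, 317 and 293 in HT1 to HT3 and of 41.3, 8.25 and 9.50 in WT1 to WT3. Slc6a2, the noradrenaline transporter, had values of 679, 747 and 614 in HT1 to HT3 and of 104, 4.44 and 1.17 in WT1 to WT3. The genotypes did not overlap for any of the 3, and their excess over WT1 was 8.07-fold, 9.12-fold and 6.45-fold. Ptf1a, which specifies GABAergic neurons of the cerebellum, had values of 17.8, 19.3 and 30.3 in HT1 to HT3 and was listed at 0 in all 3 WT libraries. It reached the minimum mean of 10 through the HT libraries alone, so no test of it is given.

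Among the genes with lower values in every HT library were Tshz3, Npy1r and Frzb. Tshz3, a zinc finger transcription factor of cortical and striatal neurons, had values of 543, 570 and 1163 in HT1 to HT3 and of 2302, 2485 and 2585 in WT1 to WT3. The 3 WT libraries lay close together and HT was 3.23-fold below WT1 and 3.56-fold below WT2 and WT3 (log2 difference -1.79, standard error 0.291, limma adjusted p = 0.267). Npy1r, a receptor of neuropeptide Y, had values of 235, 329 and 312 in HT1 to HT3 and of 688, 575 and 645 in WT1 to WT3. It was 2.38-fold and 2.10-fold lower in HT than in WT1 and than in WT2 and WT3 (limma adjusted p = 0.317). Frzb, a secreted inhibitor of Wnt ligands, had values of 57.3, 54.7 and 177 in HT1 to HT3 and of 432, 178 and 587 in WT1 to WT3. HT3 and WT2 almost met, and as with Tshz3 the HT library nearest to the WT range was HT3.

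Ppp1r1b, Isl1, Sp8 and Rarb were lower in every HT library, with the larger difference against WT2 and WT3, and none of them passed the test. Ppp1r1b, which encodes the dopamine-regulated phosphatase inhibitor DARPP-32, had values of 290, 94.5 and 99.8 in HT1 to HT3 and of 380, 2331 and 3586 in WT1 to WT3. It was 2.70-fold lower in HT than in WT1 and 20.5-fold lower than in WT2 and WT3. Isl1, a LIM homeobox gene of striatal cholinergic and of motor neurons, had values of 72.6, 60.4 and 212 in HT1 to HT3 and of 368, 1152 and 1027 in WT1 to WT3. All HT libraries of both genes were below WT1, which was itself below WT2 and WT3. Sp8, a transcription factor of interneuron precursors, had values of 24.0, 37.2 and 85.7 in HT1 to HT3 and of 97.9, 416 and 567 in WT1 to WT3, and Rarb, the retinoic acid receptor beta, was 2.13-fold and 6.15-fold lower in HT than in WT1 and than in WT2 and WT3.

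**Figure D3:**
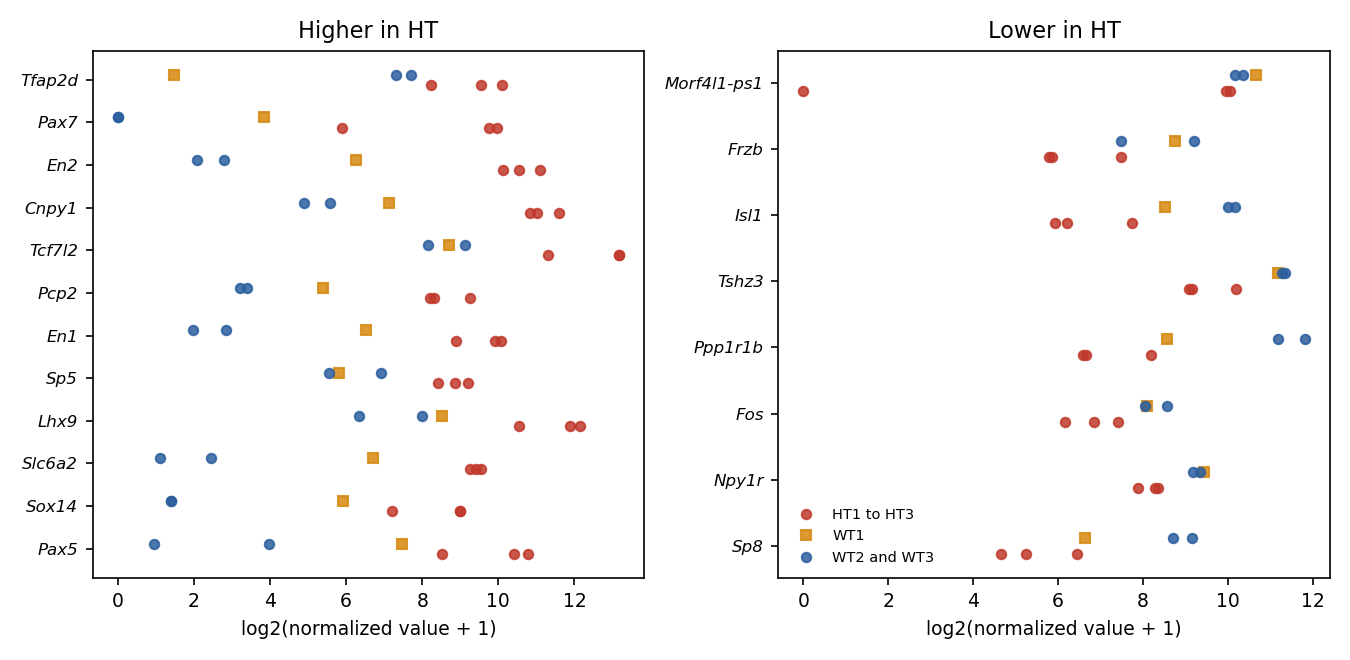
Log2(normalized value + 1) of each male library for 12 genes higher and 8 lower in HT, from those with the largest difference between HT and WT1 among genes shifted against every WT library and with a mean of at least 100. Red circles are HT1 to HT3, orange squares WT1 and blue circles WT2 and WT3, and for En1, En2, Pax5 and Sox14 WT1 stands between WT2 and WT3 and the HT libraries.

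The median differences of the midbrain, cerebellum and diencephalon lists were above 0 against both kinds of WT library, whereas those of the telencephalon and hindbrain lists turned direction. Over all genes tested the median log2 difference was -0.02, and it was -0.01 against WT1 and -0.03 against WT2 and WT3. For the 19 midbrain genes tested it was 2.49, with 0.75 against WT1 and 3.13 against WT2 and WT3, and 9 did not overlap between genotypes, all higher in HT (6.2% of all genes tested). For the 19 cerebellar genes it was 1.69, with 0.77 against WT1 and 2.33 against WT2 and WT3, and 13 were higher without overlap. For the 17 diencephalic genes it was 2.22, with 0.67 against WT1 and 2.99 against WT2 and WT3, and 7 were higher and 1 lower without overlap. Without WT1 these counts were 15 midbrain, 18 cerebellar and 12 diencephalic genes higher in HT, beside 25.3% of all genes. The shift was present against every WT library for 8 midbrain, 11 cerebellar and 6 diencephalic genes higher in HT, beside 1.69% of all genes, and for 1 diencephalic gene lower in HT, beside 0.974%. Ptf1a (above) is one of the 19 cerebellar genes and is counted in the 13 and in the 11. It reached the minimum mean through the HT libraries alone, so it could enter these counts only as higher in HT. Nothing in the fit passed for any of the 3 lists.

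Within the cerebellar list, Atoh1, Barhl1, Neurod1 and Gdf10, named after their values were seen, were higher in every HT library, and 3 of the 19 genes were lower in HT than in WT1. Atoh1, which specifies granule cell precursors, had values of 275, 198 and 204 in HT1 to HT3 and of 109, 0 and 2.15 in WT1 to WT3. Barhl1, expressed in their descendants, had values of 4006, 3333 and 3278 in HT1 to HT3 and of 1307, 4.80 and 9.98 in WT1 to WT3. Both genes were far above 0 in WT1 and close to it in WT2 and WT3, and HT was 2.03-fold above WT1 for Atoh1 and 2.69-fold above it for Barhl1. Neurod1, a neuronal differentiation factor of granule cells, had values of 3239, 2577 and 2207 in HT1 to HT3 and of 1640, 1151 and 1016 in WT1 to WT3. Gdf10, a secreted TGF-beta family member of Bergmann glia, had values of 2543, 1580 and 1858 in HT1 to HT3 and of 883, 415 and 865 in WT1 to WT3. HT was 1.61-fold above WT1 for Neurod1 and 2.21-fold above it for Gdf10. Zic1, the zinc finger gene with the highest value in the list, had values of 21849, 18150 and 11292 in HT1 to HT3 and of 22018, 4933 and 2254 in WT1 to WT3. WT1 was its highest library, so not every cerebellar marker separated HT from WT1.

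The telencephalon list had a median log2 difference of -2.13 that was -3.04 against WT2 and WT3 and 0.42 against WT1. Of its 30 genes, 4 were lower in HT without overlap (5.86% of all genes), and 3 of them by at least 1.5-fold against both kinds of WT library. Zbtb18, a zinc finger repressor of cortical neurons, had values of 6196, 5548 and 5148 in HT1 to HT3 and of 2680, 30517 and 30213 in WT1 to WT3. The HT libraries were 2.09-fold above WT1 and 5.41-fold below WT2 and WT3. Without WT1, 26 of the 30 genes fell in HT by the limma test, which called 9.93% of all genes in that direction. The hindbrain and spinal cord list had a median of 1.77, with 4.49 against WT2 and WT3 and -2.78 against WT1. Slc6a5, the glycine transporter of inhibitory hindbrain and spinal neurons, had values of 571, 813 and 4337 in HT1 to HT3 and of 6560, 5.31 and 6.78 in WT1 to WT3. WT1 was the highest library and HT3 the next. None of the 28 genes was higher in every HT library, and 3, Egr2 and Isl1 among them, were lower in every HT library (5.86% of all genes).

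Apart from the region markers, the genes of mitosis were shifted to a similar extent against both kinds of WT library. All 30 members were higher in HT than in WT1 and 29 were higher than in WT2 and WT3, with median log2 differences of 0.66 and 0.49. The genotypes did not overlap for 20 of the 30, all higher in HT (6.2% of all genes), and 5 of the 30 were also at least 1.5-fold higher against both kinds of WT library (1.69% of all genes). This count was 21 under median-of-ratios rescaling (6.45% of all genes), 17 under quantile normalization (5.99%), 20 without WT1 (25.3%) and 20 to 25 without any other single library (8.19% to 10.1%). Mki67, the gene of the proliferation antigen Ki-67, had values of 5566, 4114 and 3483 in HT1 to HT3 and of 2601, 3120 and 2625 in WT1 to WT3. It was 1.65-fold above WT1 and 1.5-fold above WT2 and WT3 (log2 difference 0.64, standard error 0.196, limma adjusted p = 0.628). Kif20a, a kinesin of cytokinesis, had values of 518, 447 and 387 in HT1 to HT3 and of 235, 325 and 219 in WT1 to WT3. Ttk, a spindle checkpoint kinase, had values of 259, 201 and 181 in HT1 to HT3 and of 111, 102 and 139 in WT1 to WT3. For Mki67, Kif20a and Ttk HT1 was the highest library and the groups did not overlap. Pcna, the DNA polymerase clamp, which is used in S phase, had values of 2161, 1902 and 2013 in HT1 to HT3 and of 1468, 2277 and 2487 in WT1 to WT3 and overlapped. No member of the list passed the limma test over all genes with all 6 libraries. Without WT1, 2 of the 30 rose by that test, beside 9.57% of all genes. The markers of cerebellar precursors moved in the same direction in the same libraries (Atoh1 and Barhl1, above), and their part in the mitosis shift was not tested. With the brain region covariate the median of the list was 0.69.

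Immediate early genes, which neurons induce on activity and cells induce on stress or handling, were lower in HT than in WT2 and WT3, with a smaller difference from WT1. The median of the 15 genes was -1.01, with -1.33 against WT2 and WT3 and -0.24 against WT1, where 8 of 15 were lower in HT. The genotypes did not overlap for 7 genes, all lower in HT (5.86% of all genes), and for 12 without WT1 (28.8%). The median was -0.58 without WT3 and -0.30 with the brain region covariate. Fos had values of 70.3, 114 and 168 in HT1 to HT3 and of 270, 264 and 379 in WT1 to WT3. The lowest WT library was above the highest HT library, with HT 2.43-fold below WT1 and 2.84-fold below WT2 and WT3 (log2 difference -1.43, standard error 0.348, limma adjusted p = 0.492). Fosb had values of 13.6, 36.8 and 14.6 in HT1 to HT3 and of 39.2, 105 and 284 in WT1 to WT3. Egr1 had values of 191, 286 and 251 in HT1 to HT3 and of 367, 761 and 1715 in WT1 to WT3. Junb had values of 53.9, 38.1 and 70.3 in HT1 to HT3 and of 88.9, 178 and 243 in WT1 to WT3. For Fosb, Egr1 and Junb WT3 was the highest library and WT1 the lowest of the WT libraries. These 4 AP-1 and zinc finger factors were the members that were also shifted by at least 1.5-fold against both kinds of WT library.

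**Figure D4:**
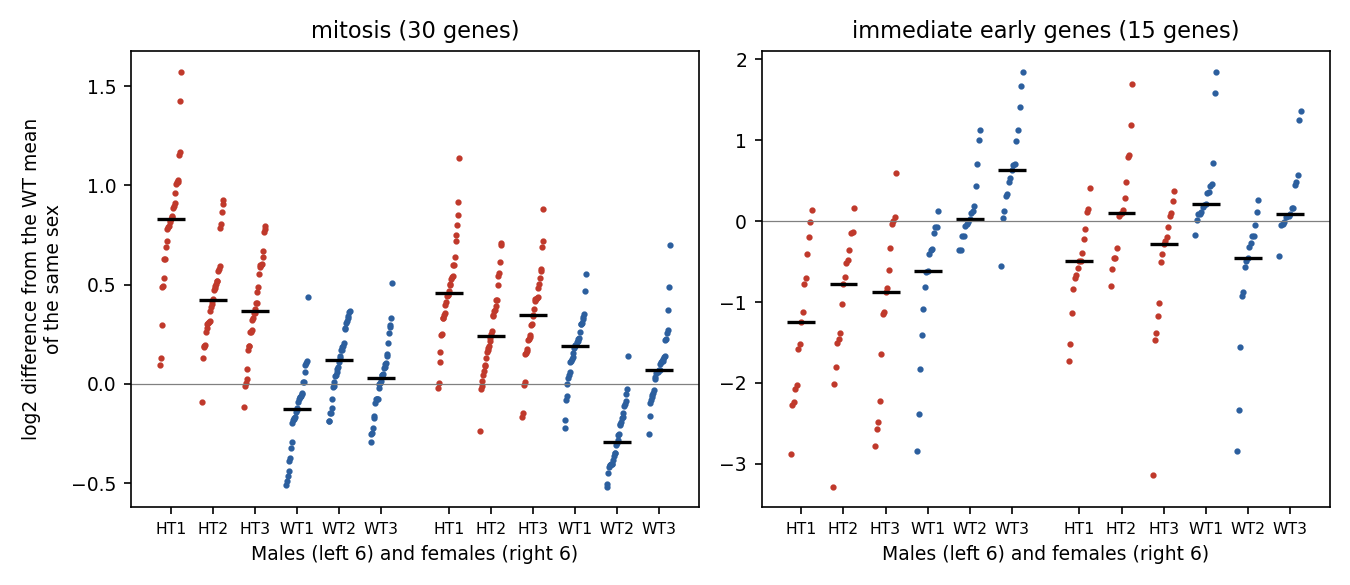
Log2(normalized value + 1) of each gene of the mitosis list (left) and of the immediate early gene list (right) minus its mean in the WT libraries of the same sex, for the 6 male and then the 6 female newborn libraries. Red points are genes in HT and blue points genes in WT libraries, and the black bars are medians, which for mitosis are 0.83, 0.42 and 0.37 in male HT1 to HT3 and at most 0.12 in male WT libraries.

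Lists of glial and vascular cells mostly turned direction between the WT libraries. Astrocyte and radial glia genes had a median of 0.34, with -0.67 against WT1 and 0.77 against WT2 and WT3. Apoe, a lipid carrier of astrocytes and microglia, had values of 12702, 13993 and 20447 in HT1 to HT3 and of 24453, 6320 and 6239 in WT1 to WT3, so that WT1 was highest. Of the 25 astrocyte and radial glia genes, 3 were higher in HT without overlap (6.2% of all genes). Only 2 of the 25 were also at least 1.5-fold higher against both kinds of WT library (1.69% of all genes). These were Vim and Pax6, both genes of radial glia and other precursors. Vim had values of 7870, 7054 and 10378 in HT1 to HT3 and of 5307, 5193 and 4240 in WT1 to WT3. Pax6, which granule cells of the cerebellum also express, had values of 4379, 3755 and 3311 in HT1 to HT3 and of 2333, 1353 and 1417 in WT1 to WT3. Neither gene passed the test (limma adjusted p = 0.492 for Vim and 0.414 for Pax6). Against WT1 and against WT2 and WT3 the medians were -0.99 and 0.93 for oligodendrocytes, -0.18 and 0.53 for their precursors, -0.45 and 0.34 for microglia, -0.23 and 0.14 for endothelium and pericytes, -0.44 and 1.30 for meninges and fibroblasts and -0.29 and 0.42 for extracellular matrix genes.

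Among the lists of neurons, synapses and general cell functions, the excitatory neuron and ribosome genes differed most between the WT libraries. Excitatory neuron genes had a median of -0.76, with -1.30 against WT2 and WT3 and 0.01 against WT1. Neurod6, a transcription factor of cortical excitatory neurons, had values of 895, 1081 and 734 in HT1 to HT3 and of 1280, 12895 and 13096 in WT1 to WT3. It was 1.43-fold below WT1 and 14.6-fold below WT2 and WT3. Inhibitory neuron genes had a median of -0.17, and it was 0.05 against WT1 and -0.23 against WT2 and WT3. The 50 synapse genes had a median of -0.20, with -0.16 against WT1 and -0.19 against WT2 and WT3, and it was -0.07 after quantile normalization. Of these 50, 2 were higher and 6 lower without overlap (6.2% and 5.86% of all genes). The 71 genes of the cytosolic ribosome had a median of -0.29, which was -0.56 against WT2 and WT3 and 0.31 against WT1. Rpsa, a protein of the small subunit, had values of 24533, 23744 and 23375 in HT1 to HT3 and of 21563, 34963 and 40410 in WT1 to WT3. All 3 HT libraries were above WT1 and below WT2 and WT3. The 61 genes of oxidative phosphorylation had a median of -0.08, which was 0.01 after quantile normalization. The 15 mitochondrially encoded genes had a median of -0.28, with -0.66 against WT1 and -0.09 against WT2 and WT3, and the genotypes overlapped for all 15. Their summed value was 1669413, 1832667 and 1151710 in HT1 to HT3 and 2418904, 1468314 and 1688048 in WT1 to WT3, highest in WT1 and lowest in HT3.

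**Figure D5:**
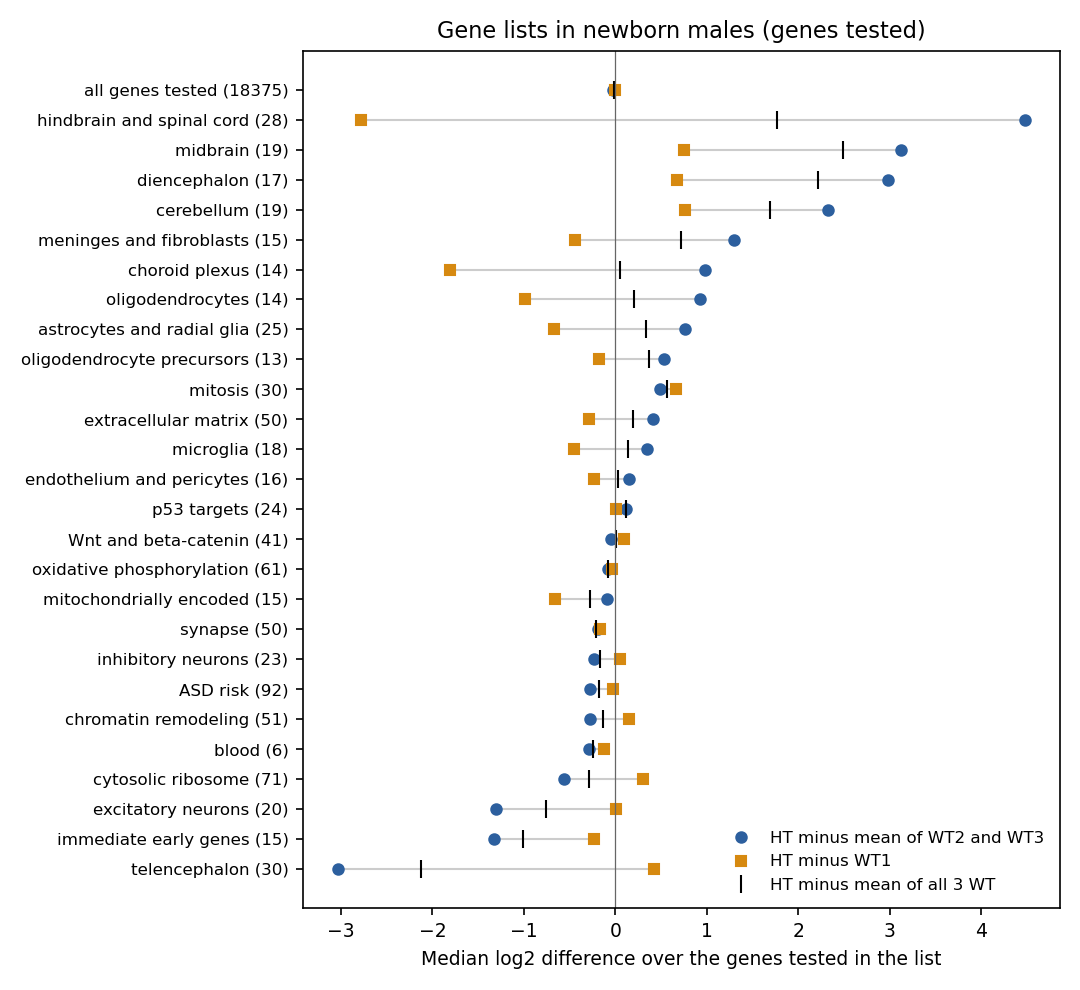
Median log2 difference of HT minus WT over the tested genes of each list, for all 3 WT libraries (black bar), for WT1 (orange square) and for the mean of WT2 and WT3 (blue circle), with the number of genes in parentheses. For telencephalon, hindbrain and ribosome genes the square and the circle lie on opposite sides of 0, and for mitosis genes they lie together at 0.66 and 0.49.

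Of the lists tied to CHD8 itself, the Wnt and beta-catenin list held the most shifts that all WT libraries shared. Of 51 chromatin remodeling genes, 3 were higher and 1 lower in HT without overlap (6.2% and 5.86% of all genes), and the median was -0.13 (0.15 against WT1 and -0.28 against WT2 and WT3). Chd7, which encodes a remodeler of the same family and is strongly expressed in cerebellar granule cells, had values of 5797, 5088 and 6272 in HT1 to HT3 and of 3521, 2385 and 1735 in WT1 to WT3. It was the remodeler shifted against every WT library, 1.62-fold against WT1 and 2.80-fold against WT2 and WT3 (log2 difference 1.22, standard error 0.254, limma adjusted p = 0.432). Chd3, a subunit of the NuRD complex, had values of 15732, 18307 and 16295 in HT1 to HT3 and of 17569, 40860 and 42446 in WT1 to WT3, and WT1 lay within HT. Of 41 Wnt and beta-catenin genes, 11 were higher and 8 lower without overlap (6.2% and 5.86% of all genes), and the median was 0.01. The shift was present against every WT library for 5 higher and 2 lower, Tcf7l2, Sp5 and Frzb (above) among them, beside 1.69% and 0.974% of all genes. Tcf7l2 is also a member of the diencephalon list. In females the differences of Tcf7l2 and Frzb had the opposite sign and that of Sp5 had the same sign. Axin2, a common target of the pathway, had values of 1670, 1747 and 1650 in HT1 to HT3 and of 1384, 1637 and 1052 in WT1 to WT3. It was above WT2 by a narrow margin in every HT library (log2 difference 0.34, limma adjusted p = 0.678). Of 92 ASD risk genes, 4 were higher and 8 lower without overlap (6.2% and 5.86% of all genes), and the median was -0.17 (-0.02 against WT1). For 4 higher and 2 lower, Pax5, Tcf7l2 and Mkx among them, the shift was present against every WT library, beside 1.69% and 0.974% of all genes. Mkx, a homeobox gene of the list, had values of 23.1, 16.1 and 43.1 in HT1 to HT3 and of 78.3, 167 and 245 in WT1 to WT3. The 24 p53 targets had a median of 0.12 and 3 were higher without overlap (6.2% of all genes). That median was 0.01 against WT1, -0.01 without HT3, -0.03 without WT3 and -0.01 with the brain region covariate.

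The newborn female set holds the closest comparison and shares no library with the males. Its libraries divided by region as well, but across the genotypes: Emx1 was 44.4, 644 and 1.21 in female HT1 to HT3 and 505, 19.1 and 493 in female WT1 to WT3. En2 was 701, 1.57 and 1637 in female HT1 to HT3 and 4.54, 1060 and 4.24 in female WT1 to WT3. HT2, WT1 and WT3 were thus rich in telencephalic RNA and HT1, HT3 and WT2 were not, and 2 of the 3 HT but 1 of the 3 WT libraries were rich in midbrain and hindbrain RNA, an imbalance in the same direction as in males. Of the 311 genes higher in all male HT libraries, 287 were tested in females and 243 of these had the same sign, beside 47.8% of all genes with a positive sign. In females the genotypes did not overlap for 1330 of the 18030 genes tested in both sets (7.38%). They did not overlap in the same direction as in males for 29 of the 287 (10.1%, beside 3.41% of all) and in the opposite direction for 1. Of the 179 lower genes, 174 were tested, 136 had the same sign (52.0% of all genes had a negative one), and 9 (5.17%, beside 3.97%) did not overlap in the same direction and 4 in the opposite one. A model of the 12 newborn libraries gave 0 of 18338 genes with a limma adjusted p under 0.05 for the interaction of sex and genotype, and 179 (0.976%) with an unadjusted p under 0.05.

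In females 1 of 18291 genes (0.00547%) passed the limma test, the processed pseudogene Gm8430, which was lower in HT, 393 (2.15%) had an unadjusted p under 0.05, and no mitosis gene passed. The female median of the mitosis genes was 0.36, 29 of 30 genes were higher in HT, 12 were higher without overlap (3.41% of all genes) and none lower, and 8 of them were higher without overlap in both sexes (0.677% of all genes). Mki67 was 4769, 2891 and 4360 in female HT1 to HT3 and 2731, 2445 and 2773 in female WT1 to WT3. HT2, the HT library poor in hindbrain RNA, lay just above WT3. The median per library, relative to the WT mean, was 0.46, 0.24 and 0.35 in female HT1 to HT3 and 0.19, -0.29 and 0.07 in female WT1 to WT3, and the lowest was that of WT2, the WT library rich in midbrain and hindbrain RNA. For the immediate early genes the female median was -0.21, 3 of the 15 had a positive difference and 1 was higher without overlap (3.41% of all genes). Fos and Fosb were lower without overlap in both sexes (0.505% of all genes). Fos was 205, 154 and 203 in female HT1 to HT3 and 288, 238 and 286 in female WT1 to WT3. The 12 genes described above with the largest shifts towards higher values in male HT, from Tfap2d and Pax7 to Slc6a2 and Pax5, all overlapped between genotypes in females, and 10 of them had a positive female difference (2.19 for En2, 1.76 for Cnpy1 and 2.38 for Pax5). Of the 8 plotted genes with lower values in male HT, 7 overlapped in females, all but Fos, and 6 had a negative female difference. Those of Frzb and of Morf4l1-ps1, a processed pseudogene listed at 0 in male HT3 (below), were 0.53 and 0.37. The 2 of the 12 with a negative female difference were Tcf7l2 (563, 1570 and 6304 in female HT1 to HT3 and 297, 13550 and 8359 in female WT1 to WT3) and Tfap2d (36.9, 141 and 709 in female HT1 to HT3 and 270, 603 and 145 in female WT1 to WT3), with log2 differences of -0.86 and -0.88. Gdf10 (1620, 851 and 1615 in female HT1 to HT3 and 410, 830 and 394 in female WT1 to WT3) and Neurod1 (2867, 1116 and 2882 in female HT1 to HT3 and 895, 1083 and 1102 in female WT1 to WT3) did not overlap, as in males.

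Genes near Chd8 on chromosome 14 were examined because the knocked-in allele lies there. Within 5 Mb of Chd8, 142 genes were tested, 12 (8.45%) had an unadjusted limma p under 0.05 beside 7.17% of all genes, and none passed after adjustment. The genotypes did not overlap for 14 genes higher and 4 lower in HT (12.7%, beside 12.1% of all genes), and the median log2 difference was 0.04. Without WT1, 54 of the 142 (38.0%) had an unadjusted p under 0.05, beside 35.8% of all genes. The shift was present against every WT library for 4 of the 142, beside 2.67% of all genes, and against the remaining WT libraries for 41 (28.9%) without WT1, beside 25.9% of all genes. Among these 4, Tep1, a telomerase-associated protein, had values of 259, 254 and 326 in HT1 to HT3 and of 176, 118 and 124 in WT1 to WT3. Pck2, a mitochondrial enzyme of gluconeogenesis, had values of 547, 542 and 716 in HT1 to HT3 and of 378, 289 and 224 in WT1 to WT3. Both were higher in all male HT libraries. In females both overlapped, with Tep1 at 214, 115 and 195 in HT1 to HT3 and 212, 150 and 151 in WT1 to WT3. Female Pck2 was 450, 458 and 382 in HT1 to HT3 and 328, 498 and 198 in WT1 to WT3. Further along the chromosome, Entpd4, a nucleotide-hydrolysing enzyme of the Golgi, had values of 1678, 1627 and 2754 in HT1 to HT3 and of 2789, 3189 and 3116 in WT1 to WT3. HT3 lay just below WT1, and the log2 difference was -0.63 (standard error 0.22, limma adjusted p = 0.677, exact two-sided permutation p = 0.1) with -0.51 against WT1. In females Entpd4 was 1845, 1861 and 1937 in HT1 to HT3 and 3295, 2726 and 2521 in WT1 to WT3, so the genotypes did not overlap in either sex. The same held at the older ages. At P25 Entpd4 was 3429 to 3508 in male HT and 4541 to 4650 in male WT libraries, and 3388 to 3591 in female HT and 4296 to 4563 in female WT libraries. At P80 it was 3726 to 3738 in male HT and 4800 to 4998 in male WT libraries, and 3628 to 3890 in female HT and 4909 to 5352 in female WT libraries.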

How the data were processed

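RNA of mouse brains labelled as whole brain (TruSeq RNA Sample Prep Kit v2; brains frozen in RNAlater) was sequenced by the authors in paired ends. The authors estimated abundance on GRCm38 with Salmon 1.1.0, summed it to genes in tximport and scaled it in DESeq2 1.26.0 (R 3.6.2 by the submitters' processing notes). The deposited signal is an estimated count divided by a normalization factor, for 29799 genes and 36 libraries. Whole reads cannot be recovered, so depth is known only as the summed value, which was 32543501, 34159699 and 31872449 in HT1 to HT3 and 34869809, 36516950 and 38154000 in WT1 to WT3. Unmatched columns numbered 0. The libraries given here as P80, by their titles and by the study, carry a younger age in the names of their deposited columns. Gene positions were taken from GENCODE vM21.

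HT and WT males at P0 were compared with limma 3.58.1 in R 4.3.3 (two-sided, eBayes trend on) using log2(value + 1) of all genes whose mean in the 6 libraries reached 10, with Benjamini-Hochberg adjustment over all genes tested and a threshold of 0.05. A shift counted as present against every WT library when the genotypes did not overlap and the HT mean differed by at least 1.5-fold from WT1 and from the mean of WT2 and WT3. The fit was tested on simulated data.

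Genes were named by a rule: Chd8, Emx1, En2, Entpd4 and the sex-linked list; the 12 shared shifts per direction with the largest difference from WT1 and a mean of at least 100; and of each list the 2 members with the highest mean and the 2 with the smallest p. Atoh1, Barhl1, Neurod1, Gdf10, Fibcd1, Axin2, Fosb, Egr1, Tep1, Pck2, Cplane1 and the other genes called with the covariate were named after their values were seen. Some genes that the rule gives are not reported here. The set of libraries, the gene lists and the tests were chosen with earlier results of these data known. Alternatives were other filters on low values, pseudocounts, scalings and models, the replicate number as a block, a brain region covariate, array quality weights and each library left out in turn.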

Additional observations from a re-analysis of the deposited data

How the results depend on the processing

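The count of genes past the limma threshold, 0 with all 6 libraries in the fit, was 1597 in a model of all 36 libraries, 5030 with array quality weights, 7 with the brain region covariate, 1 against WT1 alone and 0 to 3583 with each library left out in turn (3583 without WT1). Other filters, pseudocounts, scalings and a model of the 12 newborn libraries left it at 0. HT and WT libraries share replicate numbers, but libraries with the same number did not deviate together (correlations across genes of -0.053, 0.024 and -0.071), so the numbers do not pair them. With the replicate number as a block 2 genes passed, Lhx9 (limma adjusted p = 0.0259) and Cnpy1 (0.037). Array quality weights were 1.84, 2.93 and 0.533 for HT1 to HT3 and 0.154, 2.13 and 1.06 for WT1 to WT3, so that WT1 counted least.

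The log2 difference of Chd8 was 0.72 with the brain region covariate (limma unadjusted p = 0.00285, adjusted p = 0.427), -0.04 with array quality weights and -0.04 to 0.47 with each library left out (-0.04 without WT1). That of Emx1 was 0.25 with the covariate, 0.57 against WT1 alone, -4.94 with weights, where it passed the threshold, and -6.28 to -2.45 with each library left out, passing without WT1. That of En2 passed in the model of 36 libraries (6.87), with weights (7.95) and without WT1, with a range of 6.05 to 8.14. The count of shifts present against every WT library (490) was 1274 without a filter on low values, 212 at a minimum mean of 100, 171 at a minimum of 2-fold, 2216 with no minimum fold and 556 to 4767 with each library left out (4767 without WT1). Leaving out a library loosens the rule of no overlap, and without WT1 no difference from WT1 was required. Medians above 0 numbered 17 of the 28 lists, 9 with the covariate and 12 to 17 with each library left out. The interaction with sex gave 0 to 1 genes with each library left out (1 without HT3), and the genes near Chd8 with an unadjusted p under 0.05 (12 with all libraries) numbered 5 to 54 (5 without HT1, WT2 or WT3, beside 3.5%, 3.65% and 3.16% of all genes, and 54 without WT1, beside 35.8%).

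Of 43 other named genes, 7 reversed. With the covariate and against WT1 alone, respectively, the log2 differences were -0.50 and -0.67 for Apoe, 0.06 and 0.15 for Rpsa, -1.47 and -2.38 for Slc6a5, 0.66 and 1.07 for Zbtb18, -0.02 and -0.42 for Zic1 and -6.61 and -7.04 for Hoxb5. Hoxb5 was also -0.10 with a pseudocount of 10, -0.22 after quantile normalization, -1.42 without WT2, -1.41 without WT3 and between -2.39 (without HT3) and 4.21 (without WT1) with each library left out. Eif2s3y (0.57 with all libraries) was -0.12 with the covariate, -0.33 against WT1 alone and -0.46 (without WT2) to 1.15 (without WT3) with each library left out. The cause of these changes was not tested. Depth in reads is unknown, so low values such as those of Ptf1a carry a counting error that cannot be given here.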

Other observations

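Transthyretin (Ttr), the main secreted protein of the choroid plexus, divided the libraries in another way than the region lists did. Its values were 50235, 226 and 330 in HT1 to HT3 and 70592, 15543 and 5974 in WT1 to WT3. The summed value of the 14 choroid plexus genes was 63080 in HT1 and 86268 in WT1, against 4341 to 18847 in the other 4 male libraries. HT1 and HT2, whose rank correlation across all genes was 0.992, lay on opposite sides of this division.

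Cplane1, a gene of ciliary function, had values of 4071, 4081 and 4136 in HT1 to HT3 and of 33167, 5548 and 4551 in WT1 to WT3. In females it was 33596 in HT1 and between 4563 and 5305 in the other 5 libraries. A single high library thus occurred once in each sex and in opposite genotypes.

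Morf4l1-ps1, a processed pseudogene whose reads cannot be told apart with certainty from those of its parent gene, was listed at 0 in male HT3 and had values of 996 and 1067 in HT1 and HT2 and of 1624, 1303 and 1141 in WT1 to WT3. It was also listed at 0 in female HT2 and WT1 and had values of 882 to 1947 in the other female libraries.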
